A study of Homo sapiens with 20 samples.

Results

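The respiratory chain subunits described here are the nuclear-encoded structural proteins of mitochondrial complexes I to V. They were taken as the protein-coding genes whose official human symbol, matched from the Entrez ID of the counts table, begins with NDUFA, NDUFB, NDUFC, NDUFS or NDUFV and a number, with UQCR, with ATP5F, ATP5M or ATP5P, or with COX4 to COX8 followed by A, B or C, or that is SDHA to SDHD or CYC1. The rule found 85 of the 27864 IDs in the table, of which 37 belong to complex I, 4 to complex II, 10 to complex III, 15 to complex IV and 19 to complex V. Of the 85, 4 are readthrough or copy entries that can share reads with another member: NDUFC2-KCTD14, ATP5MF-PTCD1, UQCRHL and ATP5MGL. They count as separate subunits in all counts below. After a filter on low counts 80 of the 85 were tested. Of the other 5, all isoforms of complex IV known from other tissues, COX6A2 and COX7A1 had 0 counts in all 20 libraries, COX6B2 had 63, COX8C had 34 and COX7B2 had 28 counts in total. Tests were therefore made on the subunits that these cells transcribe, and counts below are of the 80.

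Complexes I to IV pass electrons from NADH and succinate to oxygen, and complexes I, III and IV pump protons across the inner mitochondrial membrane while they do so. Complex V, the ATP synthase, lets the protons back and makes ATP. The subunits encoded in the nucleus are imported and assembled around a smaller number encoded by mitochondrial DNA, so the chain needs both genomes. The mRNAs of the mitochondrially encoded subunits were not analysed here.

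The cells were SUM159PT, a human triple-negative breast cancer line, and the study set cells with a targeted NNMT gene against wild type in adherent and suspension culture. NNMT encodes nicotinamide N-methyltransferase. Each of 20 stranded mRNA libraries was 1 replicate of 1 of 7 groups. Whether the replicates came from separate cultures is not said in the labels, and p-values cover no more than the spread among the libraries at hand. KOs 3D and KOs 2D (3 libraries each) came from a pool of several clones made with 1 guide RNA at the NNMT transcription start site. KOd 3D and KOd 2D (3 each) came from a pool of several clones made with 2 guide RNAs that remove exon 1. The wild-type groups were wt 3D (3), wt 2D Rosens (2) and wt 2D (3). In 3D, cells formed secondary tumorspheres in low-attachment plates over 2 rounds of 6 days, in DMEM/F12 with B27 and with EGF and basic FGF at 20 ng/mL each. In 2D, adherent cells were collected at 80% confluency from Ham's F12 that held 5% calf serum, insulin at 5 µg/ml and hydrocortisone at 1 µg/ml. The wt 2D Rosens cells were adherent but were moved from that medium to the tumorsphere medium at 50% confluency and collected at 80%. The culture comparison thus changes attachment, medium and the RNA kit (Micro for tumorspheres, Mini for adherent cells) together.

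NNMT itself, as CPM (counts per 1000000, scaled by the trimmed mean of M-values, TMM), was 4.65, 5.18 and 5.64 in KOd 3D and 4.39, 4.64 and 4.62 in KOd 2D. It was 85.1, 82.9 and 86.4 in the libraries labelled KOs 3D, and 130.1, 112.8 and 76.0 in those labelled KOs 2D. In wild type it was 85.7, 79.5 and 129.9 in 3D, 225.9 and 246.5 in Rosens and 120.4, 128.3 and 102.3 in 2D. NNMT mRNA was thus low in every KOd library but not in the libraries labelled KOs, which had 76.0 to 130.1 CPM where wild type had 79.5 to 246.5, so these are called by their label throughout. The protein was not measured. Library totals ran from 37316513 to 43744817 counts in the libraries labelled KOs and from 26396964 to 32016875 in all others, and ribosomal RNA took 0.926% to 2.70% of counts in the first and 2.82% to 8.46% in the second. Library A of KOs 2D, library C of KOd 3D and library C of wt 3D stood apart from their own groups. Each had the lowest Spearman correlation with its group mates, at 0.9801, 0.9929 and 0.9862. Library C of KOs 2D had 0.9897, below library C of KOd 3D, but was not counted among these 3. Of the identity markers fixed for this line (VIM, CD44, EGFR and others), all 7 were present. Of the 6 fixed as low, ESR1, PGR and KRT20 were under 1 CPM in every library, while ERBB2 averaged 72.2 CPM and GATA3 and FOXA1 reached 14.5 and 3.05 CPM at most. The markers of leukocytes, endothelium and muscle summed to at most 193 CPM per list in any group. The highest of each list averaged 70.9 CPM for CD68, 29.8 for PECAM1 and 55.1 for ACTA1, while CLDN5 and MYH7 were at 0. In wt 3D over wt 2D PECAM1 changed by 4.47 ± 0.30 and KDR by -7.79 ± 1.12 on the log2 scale.

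The 85 genes together took 1.31% of counts at most, in library C of KOs 2D, and 0.678% at least, in library C of wt 3D. Per group the mean share was 0.999% in KOs 3D, 1.27% in KOs 2D, 0.891% in KOd 3D and 1.02% in KOd 2D, with 0.691% in wt 3D, 1.16% in wt 2D Rosens and 0.970% in wt 2D. Summed over subunits, levels per kilobase (RPKM, CPM divided by the gene length in kilobases) were highest in KOs 2D and lowest in wt 3D in each of the 5 complexes. Complex I summed to 2619 ± 9.29 RPKM in KOs 3D and 2005 ± 120 in wt 3D, with 2764 ± 90.5 in wt 2D (SD, n = 3 each). Complex V summed to 2287 ± 69.7 RPKM in wt 3D, against 3366 ± 51.9 in wt 2D. Bulk RNA does not tell less of an mRNA per cell apart from fewer cells that carry it.

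**Figure D1:**
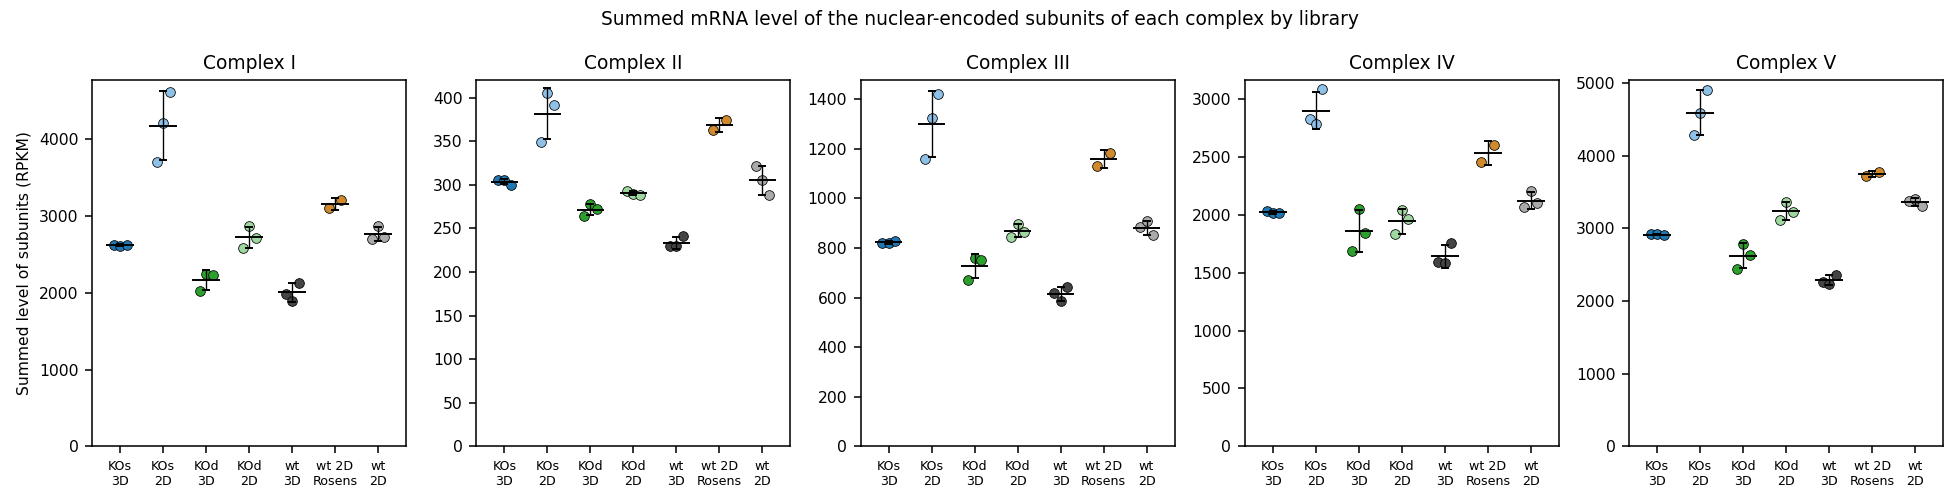
Summed level of the subunits of complexes I to V in RPKM (vertical axes, from 0) in each library (points), by group, with the group mean (line) and 1 SD (bar). Libraries of KOs 2D are highest and those of wt 3D lowest in each panel by group mean.

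Within a complex the subunits differed widely in level. The gene with the highest level per length in complex V was ATP5F1B, the catalytic beta subunit of the F1 head, in all 7 groups, with 1013 ± 98.5 RPKM in KOs 2D, its highest mean, and 425.6 ± 6.60 in wt 3D, its lowest. COX7C, a small subunit of complex IV, led its complex in 6 groups, with 343.3 ± 41.3 RPKM in wt 3D. In KOd 2D COX8A led instead with 361.7 ± 19.7 RPKM. CYC1, the haem-carrying cytochrome c1, and UQCRC1, a core protein, shared the lead in complex III. In complex II SDHA, the flavoprotein, and SDHB, the iron-sulphur subunit, stood above the membrane anchors per length in wt 3D. SDHA had 98.1 ± 4.89 and SDHB 65.9 ± 3.85 RPKM there, where SDHC had 33.1 ± 3.24 and SDHD 36.3 ± 2.99 RPKM. The deposited length is 1149 bases for SDHB and 2879 for SDHC. By CPM in wt 3D, SDHB, at 70.6 to 78.3, lay below SDHC, at 87.9 to 105.8. Of the isoform pairs, only the form common to most tissues was found at a level: COX6A1 had 209.3 RPKM in wt 3D and COX6A2 0, and COX7A2 had 133.7 RPKM and COX7A1 0. COX6B1 stood at 214.0 RPKM in wt 3D beside 0.208 for COX6B2, and COX8A at 231.1 RPKM beside 0.0641 for COX8C. The 3 genes for the same c-ring subunit of the ATP synthase were all transcribed, with 104.5 RPKM for ATP5MC1, 74.5 for ATP5MC2 and 52.2 for ATP5MC3 in wt 3D. This order rests on deposited lengths of 646, 2793 and 3482 bases. By CPM in wt 3D ATP5MC1 was the lowest, at 60.9 to 73.8, with ATP5MC2 at 174.2 to 265.1 and ATP5MC3 at 175.0 to 187.2. COX4I1, the usual complex IV subunit 4, which the symbol rule does not take in, had 185.9 RPKM there, and COX4I2 was at 0 in all groups.

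Tumorspheres of wild-type cells held less mRNA for nearly the whole chain than adherent wild-type cells. In wt 3D over wt 2D, 68 of the 80 tested subunits fell and 0 rose at an adjusted p under 0.05 (edgeR quasi-likelihood test, Benjamini-Hochberg over 16323 genes), where 30.4% of all genes fell and 33.3% rose. At an unadjusted p under 0.05 the count of risen subunits was also 0, and it was 0 by DESeq2. The median log2 fold change was -0.44 over the subunits and 0.04 over all genes. The fall took in 31 of 37 subunits of complex I, 3 of 4 of complex II, 9 of 10 of complex III, 8 of the 10 tested of complex IV and 17 of 19 of complex V. The lowest change was -0.93, and none reached a log2 fold change of 1 in size. The 12 that did not pass were NDUFA1, NDUFA13, NDUFB1, NDUFB5, NDUFB7, NDUFC2-KCTD14, SDHC, UQCRB, COX5B, COX7C, ATP5F1E and ATP5MC2.

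COX5A, a matrix-side subunit of complex IV, had the largest fall. It had 61.5, 59.6 and 70.3 CPM in wt 3D, against 117.2, 125.3 and 122.0 CPM in wt 2D. The groups did not overlap, as the choice of named genes required, with a log2 change of -0.93 ± 0.09 (SE, adjusted p = 1.6e-07, edgeR). ATP5MC1, a c-ring gene, had 73.8, 67.9 and 60.9 CPM in wt 3D, against 128.4, 130.0 and 125.0 in wt 2D. All 3 sphere libraries were below all adherent ones, with a log2 fold change of -0.92 ± 0.09. UQCR10, a small subunit of complex III, had 47.8, 45.0 and 51.2 CPM in wt 3D, against 88.1, 90.4 and 89.5 in wt 2D (-0.90 ± 0.10). ATP5PF, of the peripheral stalk of the ATP synthase, changed by -0.91 ± 0.10. ATP5F1D, the delta subunit of the central stalk, changed by -0.90 ± 0.18, with a wider error, since its adherent libraries ran from 60.4 to 89.6 CPM.

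Within complex I, all 3 core subunits of the NADH-binding module (NDUFV1, NDUFV2 and NDUFS1) fell in wt 3D, with a median of -0.66. Of the 29 accessory subunits 24 fell, with a median of -0.43. In complex III both catalytic subunits fell, CYC1 by 0.83 and the Rieske iron-sulphur protein UQCRFS1 by 0.73 on the log2 scale, while UQCRB did not pass at 0.14. In complex II, SDHB fell by 0.74, SDHD by 0.38 and SDHA by 0.21 on the log2 scale, and SDHC stood at -0.04 without passing. SDHC had 87.9, 92.3 and 105.8 CPM in wt 3D, against 103.2, 99.0 and 91.0 in wt 2D. Those libraries overlap, unlike those of SDHB, which had 78.3, 78.3 and 70.6 CPM in wt 3D, against 131.5, 128.2 and 120.4 in wt 2D.

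**Figure D2:**
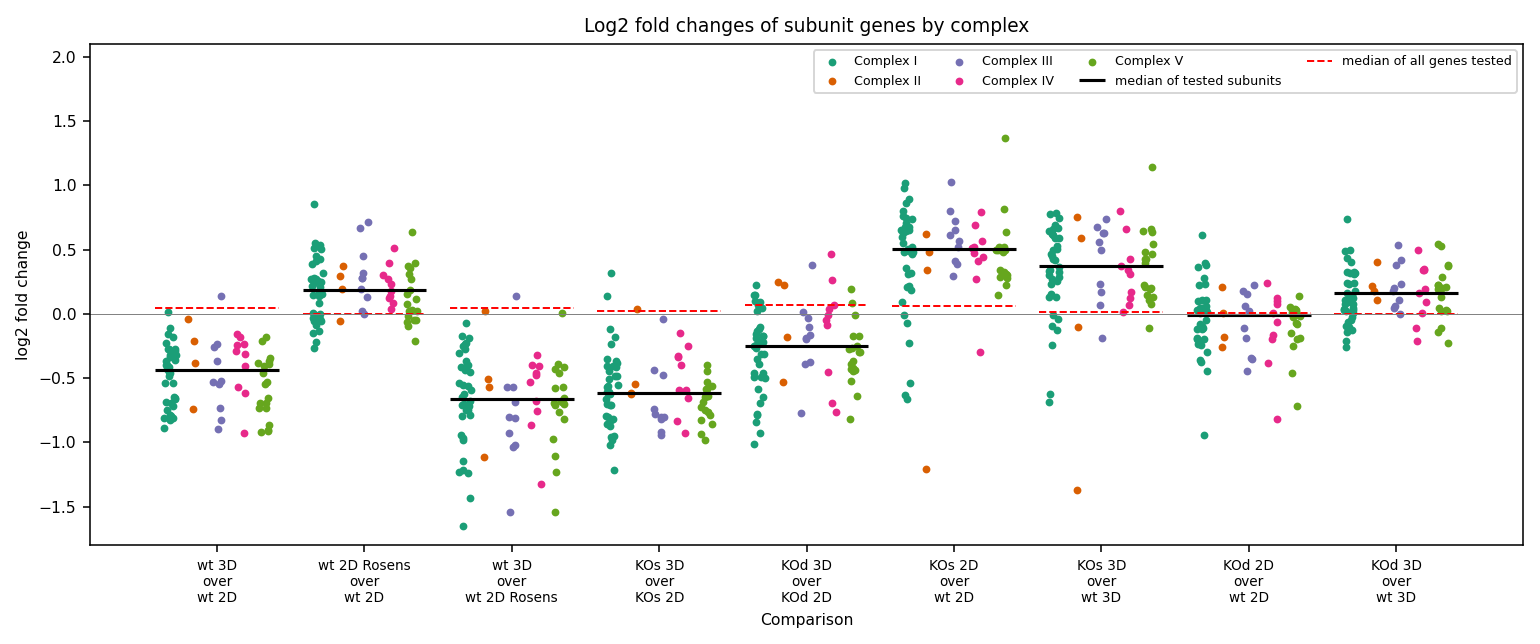
Log2 fold change (vertical axis) of each tested subunit gene (points, coloured by complex) in 9 comparisons, with the median of the 80 subunits (black) and of all 16323 genes tested (red, dashed). The black line is below the red one in the 4 comparisons of 3D with 2D or Rosens, and above it for the libraries labelled KOs over wt, for KOd 3D over wt 3D and for Rosens.

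The promoters of the subunits were read from the RefSeq table of GRCh38.p14, in windows of 300 bases from 250 before to 50 after the gene start. A window was found for 68 of the 85, and the first listed was used for the 9 with more than 1. They were searched on both strands for 3 short motifs of factors known for binding promoters of respiratory genes: the core of the nuclear respiratory factor 1 site, GCGCATGC, an ETS or GABP site, ACCGGAAG, and a YY1 site, AAGATGGCG. The first was in 13 of 68 (19.1%), against 4.36% of the 15307 promoters of protein-coding genes of the counts table and 3.27% of all 27305 promoters. The second was in 4 (5.88%), against 3.20% and 2.32%. The third was in 8 (11.8%), against 2.82% and 1.85%, and in 1 of the 8 it lay wholly before the gene start. At least 1 motif was in 18 of 68 (26.5%), against 9.75% and 7.04%. Of these 18 members 15 fell in wt 3D over wt 2D, beside 68 of the 80 tested, and ATP5MC2, COX5B and NDUFA13 did not pass. A match says only that the letters are there. The stretches below are shown because they carry these letters in members that the results turn on, and in COX5B as one that did not pass in wt 3D; the other 4 fell. Capitals mark motif matches on either strand, and the sequence is that of the gene's own strand. SDHD is chr11:112086747-112086817 (+), with core matches on both strands that overlap each other, and an ETS match on the opposite strand. SDHB is chr1:17054143-17054242 (-), NDUFS7 is chr19:1383817-1383871 (+), COX5B is chr2:97645902-97645961 (+) and COX6A1 is chr12:120437883-120437962 (+).
SDHD: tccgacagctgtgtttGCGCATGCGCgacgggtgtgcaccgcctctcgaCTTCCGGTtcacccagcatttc
SDHB: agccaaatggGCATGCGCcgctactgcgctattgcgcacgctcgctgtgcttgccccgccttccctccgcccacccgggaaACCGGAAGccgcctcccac
NDUFS7: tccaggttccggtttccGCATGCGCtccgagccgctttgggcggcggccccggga
COX5B: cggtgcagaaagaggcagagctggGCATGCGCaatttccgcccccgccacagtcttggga
COX6A1: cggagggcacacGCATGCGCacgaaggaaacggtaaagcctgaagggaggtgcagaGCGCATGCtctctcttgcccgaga
The stretches lie wholly before the gene start, from 126 to 56 bases before it for SDHD and from 230 to 151 for COX6A1. SDHD and SDHB share the core and the ETS letters but did not move alike in the libraries labelled KOs, as given below.

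Adherent cells in the tumorsphere medium changed in the opposite direction. In wt 2D Rosens over wt 2D, 28 of the 80 subunits rose and 1 fell, where 15.6% of all genes rose and 16.4% fell. The median log2 fold change was 0.19 over the subunits and 0 over all genes. The rises took in 14 of complex I, 2 of complex II, 3 of complex III, 3 of complex IV and 6 of complex V. CYC1 had 302.7 and 318.2 CPM in Rosens, against 190.0, 194.7 and 184.1 in wt 2D. Both Rosens libraries were above all 3 others, with a log2 fold change of 0.71 ± 0.11 (adjusted p = 9.9e-05, edgeR). UQCRC2, a core protein of complex III, had 328.7 and 334.2 CPM in Rosens, against 220.6, 217.3 and 188.8 in wt 2D (0.67 ± 0.08). NDUFS7, an iron-sulphur subunit of complex I, had 69.7 and 72.5 CPM in Rosens, against 26.4, 51.2 and 40.6 in wt 2D. Its change of 0.85 ± 0.20 was the largest, but its wt 2D libraries differed more widely than this among themselves. None of the 4 subunits of the peripheral stalk of the ATP synthase passed (median 0.05). With only 2 Rosens libraries the count is fragile: it was 14 without Rosens library A and 8 without library B, where the library left was taken to vary like those of other groups. The 1 fall, NDUFA12 at -0.26 ± 0.09, was lost without either library, and ATP5F1D, at 0.64 ± 0.20, was also lost without either.

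Set against these adherent cells in the same medium, spheres were lower still. In wt 3D over wt 2D Rosens, 72 subunits fell and 0 rose, where 30% of all genes fell and 32.8% rose. The count of rises was 0 at an unadjusted p under 0.05 and by DESeq2 too. The median was -0.66 over the subunits and 0.05 over all genes. NDUFS7 changed by -1.65 ± 0.20, CYC1 by -1.54 ± 0.11, ATP5F1D by -1.54 ± 0.20, NDUFA7 by -1.44 ± 0.10 and COX5A by -1.32 ± 0.10. NDUFA7, an accessory subunit of complex I, had 24.3, 21.6 and 24.6 CPM in wt 3D, against 60.2 and 67.1 in Rosens. Both comparisons use the same wt 3D libraries. The subunits that did not pass were NDUFB1, NDUFB7, NDUFC1, NDUFC2-KCTD14, NDUFS4, SDHC, UQCRB and ATP5F1E.

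Most subunits also fell in 3D in the libraries labelled KOs. In KOs 3D over KOs 2D, 72 subunits fell and 1 rose, where 32.1% of all genes fell and 32.9% rose, and the median was -0.62 against 0.02 over all genes. This and the wild-type comparison share no library. The subunits that fell in both were 61 of the 68 in wt and 61 of the 72 in the libraries labelled KOs, an overlap that lists of this length among 80 largely fix. All 19 subunits of complex V fell. NDUFA7 had 37.4, 38.3 and 38.4 CPM in KOs 3D, against 76.5, 93.7 and 94.2 in KOs 2D, with no overlap (log2 change -1.21 ± 0.09, adjusted p = 7.1e-09, edgeR). NDUFA3 changed by -1.02 ± 0.13, ATP5F1D and NDUFB7 by -0.98 each (SE 0.18 and 0.15) and NDUFB2 by -0.96 ± 0.09. The 1 rise was NDUFV1, the flavin-carrying subunit that accepts electrons from NADH. It had 145.9, 144.2 and 152.1 CPM in KOs 3D, against 114.7, 118.5 and 121.8 in KOs 2D (0.32 ± 0.07). Scaling by library totals alone gave 60 falls and 3 rises here, with an all-gene median of 0.24 and 65.5% of all calls risen in place of 50.6%. The distance from the members' median to that of all genes was -0.64 under both scalings.

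KOd cells showed a smaller and less uniform change. In KOd 3D over KOd 2D, 42 subunits fell and 6 rose, where 31.2% of all genes fell and 35.2% rose, and the median was -0.25 against 0.07 over all genes. By complex, 19 of 37 fell in complex I, 1 of 4 in complex II, 3 of 10 in complex III, 3 of the 10 tested in complex IV and 16 of 19 in complex V. The 6 that rose were NDUFA1, SDHA, SDHC, UQCRB, COX6B1 and COX7B. COX6B1, an intermembrane-space subunit of complex IV, had 105.2, 130.3 and 115.6 CPM in KOd 3D, against 86.3, 88.7 and 78.9 in KOd 2D, a log2 fold change of 0.47 ± 0.09 (adjusted p = 0.00032, edgeR). UQCRB, a subunit of complex III that helps bind ubiquinone, changed by 0.38 ± 0.10, COX7B by 0.26 ± 0.09, SDHC by 0.25 ± 0.08 and NDUFA1 by 0.23 ± 0.08. The calls of COX7B and NDUFA1 were lost without KOd 3D library B (adjusted p = 0.137 and 0.144, edgeR) and without KOd 2D library A or C. Among the falls, NDUFA7 changed by -1.01 ± 0.09, NDUFS7 by -0.92 ± 0.19, NDUFB9 by -0.84 ± 0.13, ATP5F1D by -0.82 ± 0.18 and NDUFB10 by -0.79 ± 0.10. In all, 38 subunits fell in 3D in wt, in the libraries labelled KOs and in KOd, a number that the lengths of these lists largely set. SDHA, COX6B1 and COX7B fell in wt and rose in KOd.

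**Figure D3:**
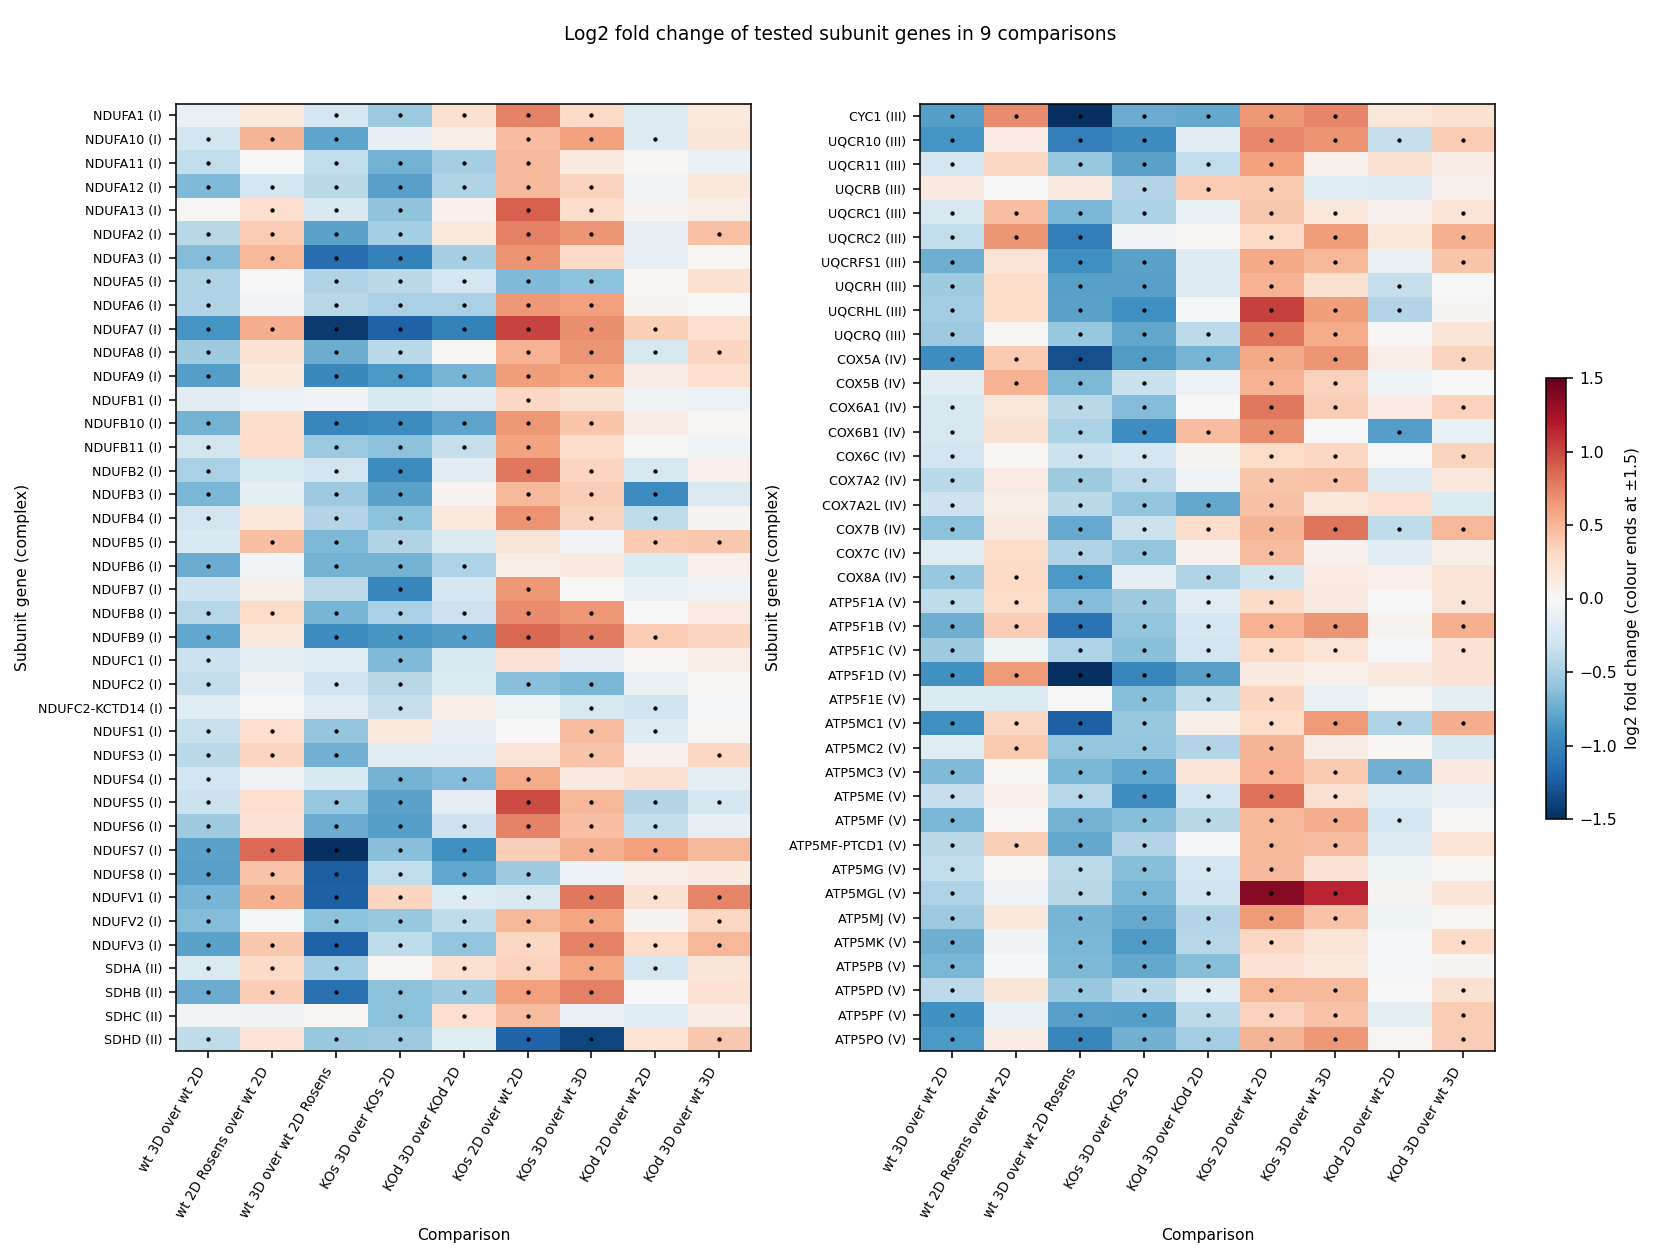
Log2 fold change (colour) of tested subunit genes, 1 of the 80 left out (vertical axis, complex in brackets) in 9 comparisons (horizontal axis); black dots mark an adjusted p under 0.05. Columns of 3D over 2D are mostly blue, with 0 called rises in wt, 1 for the label KOs and 6 in KOd. Those of the libraries labelled KOs over wt are mostly red apart from SDHD, NDUFC2 and NDUFA5.

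The difference between KOd and wt in their culture change was itself tested, as the interaction of pool and culture. It was positive for 21 subunits and negative for 2, where 14.4% of all genes were positive and 14.7% negative at the same threshold, and the median was 0.22 against 0.01 over all genes. The 21 were 7 of complex I, 1 of complex II, 4 of complex III, 4 of complex IV and 5 of complex V. ATP5MC1 had 91.3, 103.7 and 100.8 CPM in KOd 3D and 84.2, 97.0 and 98.1 in KOd 2D, so its culture change in KOd was near 0, at 0.08. Against the wild-type values above, its interaction was 1.00 ± 0.13 (adjusted p = 1.9e-05, edgeR). COX7B had 96.3, 124.6 and 101.1 CPM in KOd 3D and 86.9, 94.5 and 87.2 in KOd 2D, with 75.6, 79.5 and 72.5 in wt 3D and 117.7, 125.1 and 106.6 in wt 2D. Its order was thus turned round between wt and KOd, and the interaction was 0.88 ± 0.13. ATP5MC3, another c-ring gene, gave 0.85 ± 0.14, and NDUFB3 and UQCR10 gave 0.73 ± 0.14 each. The third c-ring gene, ATP5MC2, stood at -0.25 and did not pass. The 2 negative ones were COX7A2L, a complex IV relative known for joining complexes into supercomplexes, at -0.45 ± 0.14, and NDUFS4 at -0.36 ± 0.13. Both were lost without the 3 libraries that stand apart (adjusted p = 0.0621 and 0.0808, edgeR), and the count of positive subunits was then 33. With 1 library at a time left out, that count was 17 to 27.

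An interaction can come from either culture, so KOd was also set against wt in each. In KOd 2D over wt 2D, 18 subunits fell and 6 rose, where 22.5% of all genes fell and 22.1% rose, so the share of falls was that of the background, and the median was -0.01 over the subunits and 0.01 over all genes. The largest falls were few and large. NDUFB3 had 27.0, 29.0 and 25.4 CPM in KOd 2D, against 52.9, 53.7 and 50.0 in wt 2D, with a log2 fold change of -0.94 ± 0.10 (adjusted p = 7.5e-07, edgeR). COX6B1 had 86.3, 88.7 and 78.9 CPM in KOd 2D, against 148.5, 149.0 and 151.1 in wt 2D (-0.82 ± 0.10). ATP5MC3 had 173.4, 182.0 and 167.5 CPM in KOd 2D, against 294.3, 293.9 and 272.2 in wt 2D (-0.72 ± 0.10). In all 3 genes the KOd 2D libraries lay below or within the range of the wt 3D ones, and none reached a wt 2D library. ATP5MC1 changed by -0.46 ± 0.09. The rises were NDUFS7 at 0.62 ± 0.18, NDUFB5 at 0.39 ± 0.12, NDUFB9 at 0.38 ± 0.13, NDUFA7 at 0.36 ± 0.09, NDUFV3 at 0.28 ± 0.11 and NDUFV1 at 0.23. For NDUFS7 the wt 2D libraries alone ran from 26.4 to 51.2 CPM. The count of rises was 2 without wt 2D library C, 3 without KOd 2D library B and 12 without the libraries that stand apart. By library totals alone it was 16 rises and 11 falls, with an all-gene median of 0.12 and 61.2% of all calls risen in place of 49.6%.

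In KOd 3D over wt 3D, 25 subunits rose and 1 fell, where 16.5% of all genes rose and 17.5% fell, and the median was 0.16 over the subunits and 0.00 over all genes. NDUFV1 had 144.6, 133.2 and 149.0 CPM in KOd 3D, against 90.2, 76.7 and 89.2 in wt 3D. The groups did not overlap, and its log2 fold change was 0.74 ± 0.07 (adjusted p = 3.4e-07, edgeR). ATP5F1B had 1088, 1193 and 1118 CPM in KOd 3D, against 792.3, 790.4 and 770.4 in wt 3D (0.53 ± 0.08). UQCRC2 changed by 0.54 ± 0.07, ATP5MC1 by 0.55 ± 0.09 and COX7B by 0.50 ± 0.09. The fall was NDUFS5, at -0.25 ± 0.09, and its call was lost without wt 3D library C or KOd 3D library A or B. The count of rises was 17 to 28 with 1 library at a time left out, and 17 without KOd 3D library B. By library totals alone 50 subunits rose and 0 fell, with an all-gene median of 0.16 and 70.1% of all calls risen in place of 48.5%. The members' median less that of all genes was 0.16 under both scalings. ATP5MC1, COX7B, NDUFA8 and UQCR10 fell in KOd relative to wt in 2D and rose in 3D.

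**Figure D4:**
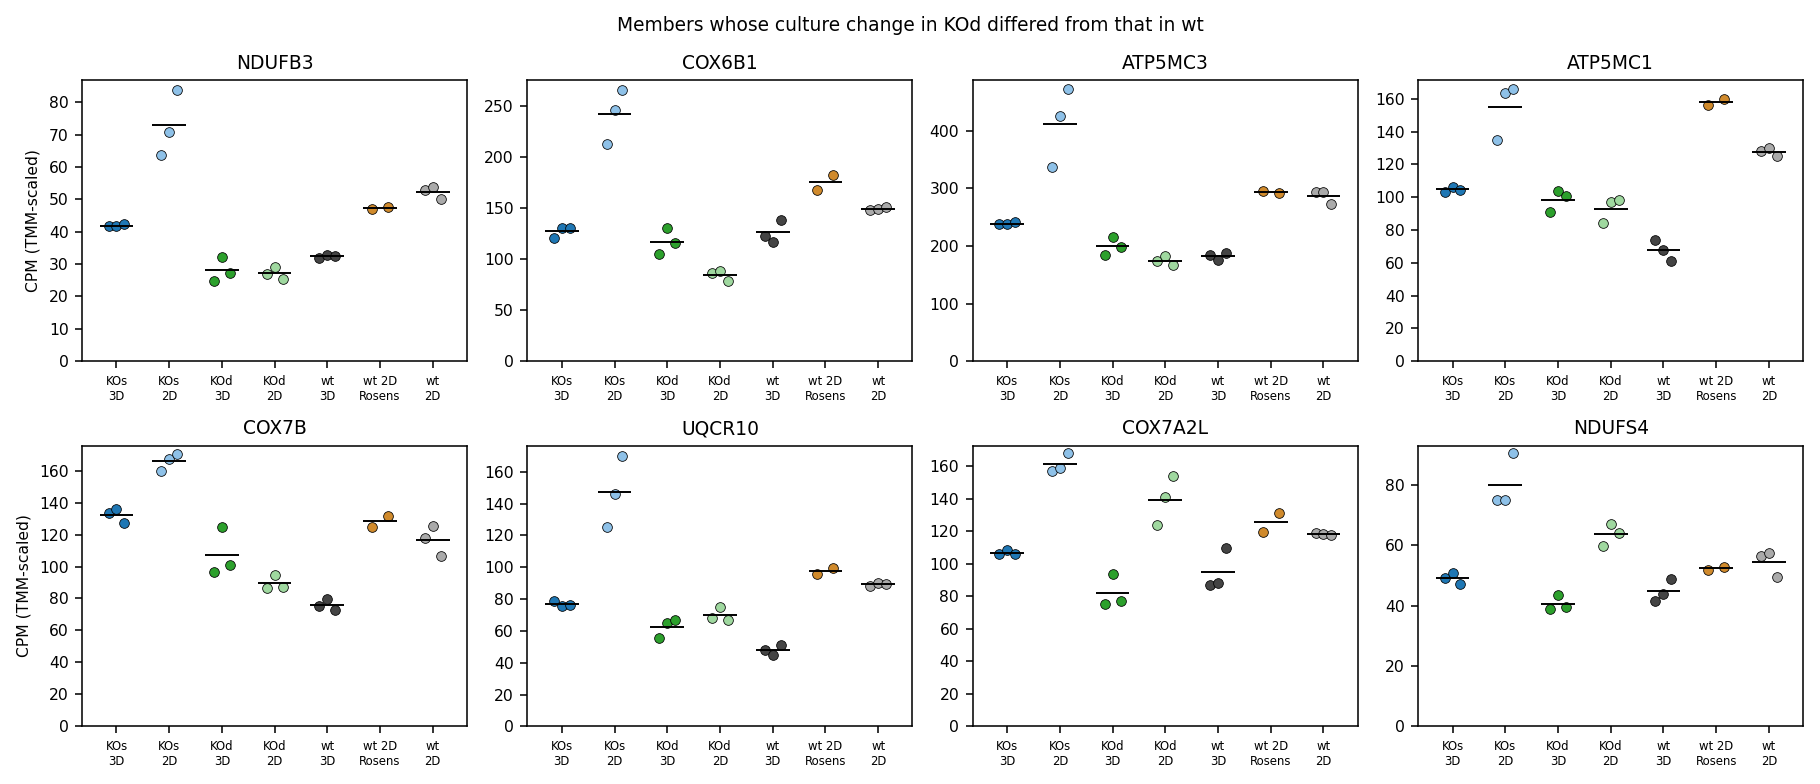
Level of 8 members (TMM-scaled CPM, vertical axes from 0) in each library (points) with group means (lines), by group. In KOd 2D the points of NDUFB3, COX6B1 and ATP5MC3 lie near those of wt 3D or below them, and COX7B and ATP5MC1 lie higher in wt 2D than in wt 3D but not in KOd 2D than in KOd 3D.

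The libraries labelled KOs had more mRNA for most subunits than wild type in both cultures. In KOs 2D over wt 2D, 65 subunits rose and 6 fell, where 27.7% of all genes rose and 25.5% fell, and the median was 0.50 against 0.06 over all genes. All 10 subunits of complex III rose, with 26 of 37 in complex I, 3 of 4 in complex II, 9 of the 10 tested in complex IV and 17 of 19 in complex V. NDUFS5, an accessory subunit of complex I, had the largest level per length of its complex there, with 398.4 ± 57.1 RPKM in KOs 2D and 202.0 ± 0.847 RPKM in wt 2D (SD, n = 3 each), and changed by 0.98 ± 0.09 (adjusted p = 6.8e-08, edgeR). NDUFA7 changed by 1.02 ± 0.09 and NDUFA13 by 0.89 ± 0.08. ATP5MGL at 1.36 ± 0.11 and UQCRHL at 1.02 ± 0.10 ranked highest, but both are near-identical copies of another member, ATP5MG at 0.48 and UQCRH at 0.52, and their counts are uncertain where reads could be split between the copies. In KOs 3D over wt 3D, 51 rose and 4 fell, where 27.8% of all genes rose and 28.5% fell, and the median was 0.37 against 0.02. Those that rose in both cultures were 47 of the 51 in 3D and 47 of the 65 in 2D. Lists of this length among 80 largely fix such an overlap, and its share over all genes was not counted. COX7B had 133.7, 136.1 and 127.2 CPM in KOs 3D, against 75.6, 79.5 and 72.5 in wt 3D (0.80 ± 0.09). SDHB had 127.3, 129.8 and 125.2 CPM in KOs 3D, against 78.3, 78.3 and 70.6 in wt 3D (0.75 ± 0.10). All KOs 3D libraries were above all wt 3D libraries in both genes, as the choice of named genes required. By library totals alone 66 rose and 3 fell in 3D, with an all-gene median of 0.18 and 63.1% of all calls risen in place of 49.3%. Depth and ribosomal RNA share also set the libraries labelled KOs apart from all others, and their part in these differences was not tested.

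Against this general rise, SDHD, one of the membrane anchors of complex II, was much lower. It had 21.9, 22.9 and 21.7 CPM in KOs 3D, against 53.4, 56.2 and 62.6 in wt 3D. It had 31.3, 33.1 and 32.6 CPM in KOs 2D, against 82.1, 75.8 and 65.8 in wt 2D. No library labelled KOs reached any of the other 14, and the log2 fold changes were -1.37 ± 0.09 in 3D (adjusted p = 6.8e-10, edgeR) and -1.21 ± 0.09 in 2D (adjusted p = 5.9e-09, edgeR). Its partners went up or did not pass: SDHA changed by 0.59 in 3D and 0.34 in 2D, SDHB by 0.75 and 0.62, and SDHC by -0.11 without passing in 3D and by 0.48 in 2D. NDUFC2 of complex I fell too, with 45.8, 43.6 and 46.9 CPM in KOs 3D, against 72.3, 69.1 and 77.4 in wt 3D, and log2 fold changes of -0.68 ± 0.11 in 3D and -0.63 ± 0.11 in 2D. Reads of NDUFC2 can be shared with the readthrough entry NDUFC2-KCTD14, which changed by -0.25 ± 0.10 in 3D, a call lost without any 1 of 5 of the 6 libraries compared, and stood at -0.07 in 2D. NDUFA5, another accessory subunit, changed by -0.62 ± 0.10 in 3D and -0.66 ± 0.10 in 2D. NDUFS8, NDUFV1 and COX8A fell in 2D alone, by 0.54, 0.22 and 0.29 on the log2 scale.

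Of the 6 members that fell in KOs 2D, 5 lie on chromosome 11, as was seen after their values were known. NNMT, the gene targeted in both pools, lies on chromosome 11 too, on the same arm as SDHD. There 893 genes were tested, with a median log2 fold change of -0.52 in KOs 2D over wt 2D and -0.20 in KOs 3D over wt 3D. Of its 8 tested members, 1 rose and 5 fell in 2D. The genes within 2.5 Mb of each member were compared with it (RefSeq GRCh38.p14, lowest coordinate of each gene). Around SDHD, 33 tested neighbours had a median of -0.59 in 2D and -0.79 in 3D, and 22 of them fell in 3D. Around NDUFC2, 26 neighbours had medians of -0.79 and -0.43. Around NDUFV1 and NDUFS8, which lie near each other, medians were -0.66 and -0.64 in 2D and -0.22 and -0.23 in 3D. ATP5MG, farther along the same arm as SDHD, changed by 0.48 in 2D, and its 50 neighbours had a median of 0.06. In KOd the neighbours of SDHD had medians of 0.25 in 2D and 0.12 in 3D. Around NDUFA5 on chromosome 7, 11 neighbours had medians of -0.16 in 2D and -0.34 in 3D, and 3 and 6 of them fell, while the median of the 824 genes tested on that chromosome was 0.07 in 2D and 0.08 in 3D. The cause was not tested.

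**Figure D5:**
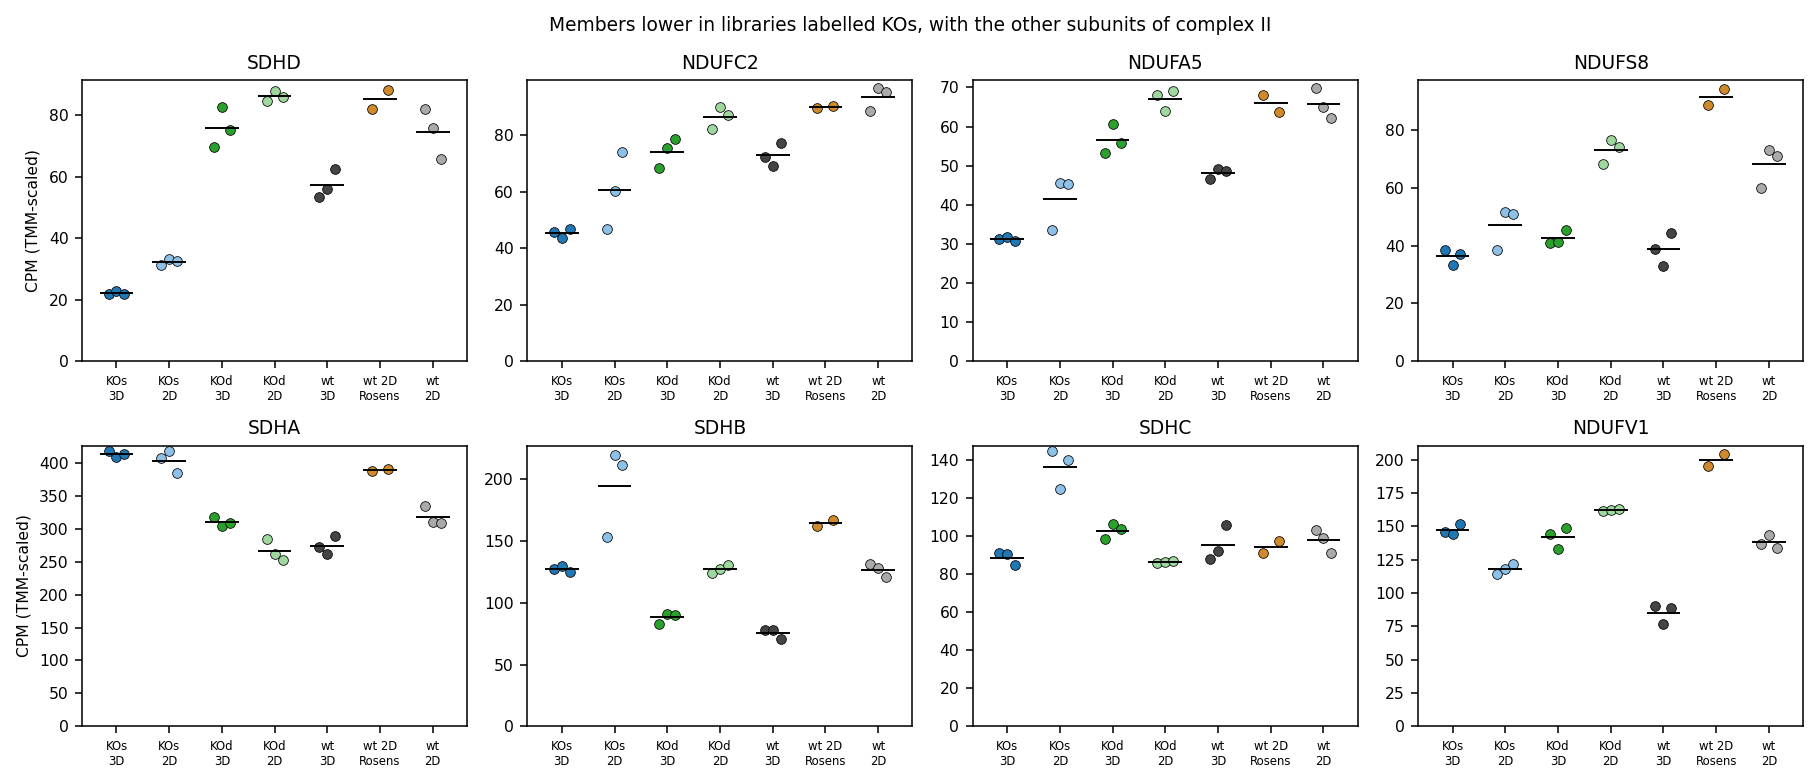
Level of 8 members (TMM-scaled CPM, vertical axes from 0) in each library (points) with group means (lines), by group. SDHD is lowest in the 6 libraries labelled KOs, between 21.7 and 33.1 CPM, while SDHA and SDHB in those libraries lie above their wild-type levels in the same culture.

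The culture change differed between the libraries labelled KOs and wt for 7 subunits in the positive and 16 in the negative direction, where 17.9% and 19% of all genes did. The positive count was below the background share and the negative count near it. The median was -0.12 against -0.03 over all genes. It was -0.04 without KOs 2D library C and -0.19 without KOs 2D library A. NDUFV1 stood out with an interaction of 1.01 ± 0.10 (adjusted p = 1.4e-06, edgeR): it fell in 3D in wt, at -0.70, and rose in the libraries labelled KOs, at 0.32. It was lower in KOs 2D than in wt 2D and higher in KOs 3D than in wt 3D, by 0.79 ± 0.07, though its call in 2D was lost without wt 2D library B (adjusted p = 0.0582, edgeR). NDUFS1, its neighbour in the NADH-binding module, gave 0.48 ± 0.10. The other end was held by small subunits, COX6B1 at -0.68 ± 0.13, NDUFB7 at -0.67 ± 0.22, NDUFA13 at -0.62 ± 0.11, ATP5ME at -0.59 ± 0.12 and SDHC at -0.58 ± 0.11. By library totals alone 15 were positive and 5 negative, and the subunits' median turned to 0.11, with an all-gene median of 0.18 and 69.5% of all calls positive in place of 48.5%.

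Other mitochondrial genes were counted from lists of the same kind. In wt 3D over wt 2D, where 30.4% of all genes fell and 33.3% rose, 69 of 77 mitochondrial ribosomal proteins, which build the machine that translates the mitochondrial subunits, fell and 1 rose, with a median of -0.63. The protein import machinery of both membranes (TOM and TIM) had 21 falls and 2 rises of 24, with a median of -0.79, and TIMM50, a receptor of the inner membrane, changed by -1.17 ± 0.15. Assembly factors of complex I had 13 falls of 19, those of complex III 5 of 6 and those of complex IV 18 of 25 with 2 rises, with FOXRED1, BCS1L and SCO1 at -1.11, -1.12 and -1.22. Those of complexes II and V had 1 fall of 4 each, with medians of -0.10 and -0.07. The fall for complex V was ATPAF1, at -0.41 ± 0.07, and that for complex II SDHAF3. SDHAF3, which helps put the iron-sulphur subunit into complex II, changed by -1.24 ± 0.13. The tricarboxylic acid cycle and pyruvate dehydrogenase list had 14 falls and 3 rises of 24, and FH, fumarase, changed by -1.25 ± 0.08. This list also holds the kinases PDK1 to PDK4 and the phosphatases PDP1 and PDP2, which turn pyruvate dehydrogenase off and on. Of 15 genes of cytochrome c and ubiquinone synthesis 8 fell and 1, COQ10B, rose (0.41 ± 0.10), with a median of -0.22. Among them cytochrome c (CYCS) changed by -1.29 ± 0.18 and COQ2 by -1.46 ± 0.10, while COQ4, COQ5, COQ8A, COQ8B, COQ9 and PDSS2 did not pass. Of 15 regulators of mitochondrial biogenesis 10 fell, among them TFAM, which packs and transcribes mitochondrial DNA, at -0.62 ± 0.12, and the factor NRF1 at -0.42. These 15 include the hypoxia-inducible factors EPAS1 and HIF1A, which were among the falls, at -0.45 and -0.66. The median of the respiratory subunits, -0.44, lay above those of the import and mitochondrial ribosome lists.

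In KOs 2D over wt 2D, where 27.7% of all genes rose and 25.5% fell, 54 of the 77 mitochondrial ribosomal proteins rose and 7 fell (median 0.54), and 15 of 24 import genes rose and 1 fell. The 15 regulators had 2 rises and 7 falls there, with a median of -0.29, but 5 rises and 3 falls in KOs 3D over wt 3D, with a median of 0.30, where 27.8% of all genes rose and 28.5% fell. The 5 rises in 3D include the hypoxia-inducible factors EPAS1, at 1.56, and HIF1A, at 0.43. In 2D EPAS1 rose, at 0.82, and HIF1A fell, at -0.35. GABPA, which binds the ETS letters given above, changed by -0.81 ± 0.08 in 2D and -0.76 ± 0.08 in 3D. Of the other factors whose motifs were searched, NRF1 did not pass, at 0.10 in 2D and 0.01 in 3D. YY1 fell, at -0.40 in 2D and -0.46 in 3D. Any link of these factors to the subunits was not tested. In the interaction of KOd and culture 14.4% of all genes were positive and 14.7% negative. There 16 of the 24 genes of the tricarboxylic acid cycle and pyruvate dehydrogenase list were positive and 2 negative (median 0.43). The 16 include the kinases PDK1, PDK2 and PDK3, at 0.50, 1.02 and 2.25, and the phosphatase PDP2, at 0.63. The phosphatase PDP1 was negative, at -1.07, and PDK4 did not pass. Of the 77 mitochondrial ribosomal proteins 8 were positive and 4 negative (median 0.09), both below the share over all genes. SUCLA2, a subunit of succinyl-CoA synthetase, changed by -2.51 ± 0.07 in KOs 3D over wt 3D and -1.55 ± 0.07 in KOd 3D over wt 3D. The 2 comparisons share the wt 3D libraries. SUCLA2 lies on chromosome 13. The 283 genes tested there had a median of -0.83 in KOs 3D over wt 3D and -0.05 in KOd 3D over wt 3D. Any link to the change of SUCLA2 was not tested.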

How the data were processed

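The authors deposited whole-number read counts per Entrez gene for 20 libraries, with a gene length in bases, made with STAR on hg38 per the submitters' processing notes. The counting tool, its strand setting and the annotation are not given in the sources used here. Of 27864 IDs, 27740 matched a RefSeq symbol. Library totals ran from 26396964 to 43744817 counts, and counting error is small beside the spread between libraries at these levels. Counts were filtered with filterByExpr, scaled by TMM and fitted with edgeR 4.0.16 (quasi-likelihood, R 4.3.3), with 1 coefficient per group, all 20 libraries and 16323 genes. The residual degrees of freedom were 13, and the biological coefficient of variation was 0.143. Log2 fold changes have the SE of the model. An adjusted p (Benjamini-Hochberg over all genes tested) under 0.05 counted as passed. CPM were scaled by TMM, and RPKM used the deposited length. The model was tested on simulated data. Named genes were the 5 largest rises and falls per comparison among passing members without overlap, the highest level per complex, isoform pairs, the SDH subunits and the 3 smallest adjusted p per list. Others were picked with their values in view. The lack of overlap in the largest rises and falls was thus set by this choice and adds no evidence. The members, lists and tests were chosen with earlier results of these data known. The replicate letters come from the sample titles, which do not say what they share. Deviations from group means of same-letter libraries correlated above 0.1 in every pair in KOd 3D and wt 3D alone (r from 0.210 to 0.342), so the letter was taken to pair these. Alternatives were other size factors (RLE, library totals alone), no filter, a stricter filter (1 CPM in 3 libraries), DESeq2 1.42.0, the replicate letter as a block, and leaving out libraries. Subunit genes of mitochondrial DNA and protein sequences were not analysed here, and the values of 1 member and 1 marker gene are not reported here.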

Additional observations from a re-analysis of the deposited data

Results flagged for a closer look

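The difference between the culture change in a pool and that in wt, the interaction of pool and culture, was tested. It passed for 21 of the 80 subunits with a higher and 2 with a lower value in KOd, where 14.4% and 14.7% of all genes passed. In the libraries labelled KOs it passed for 7 with a higher and 16 with a lower value, where 17.9% and 19% of all genes passed. The 7 were thus below the share over all genes and the 16 near it. In KOd the log2 interactions were 1.00 for ATP5MC1, 0.88 for COX7B, 0.85 for ATP5MC3, 0.73 for NDUFB3 and 0.73 for UQCR10, with -0.45 for COX7A2L and -0.36 for NDUFS4. In the libraries labelled KOs they were 1.01 for NDUFV1, 0.48 for NDUFS1, 0.44 for NDUFS8, 0.43 for NDUFV3 and 0.42 for COX8A. The lowest there were -0.68 for COX6B1, -0.67 for NDUFB7, -0.62 for NDUFA13, -0.59 for ATP5ME and -0.58 for SDHC. Both sets of interactions use the same wild-type libraries. Groups of 3 or fewer libraries are too small for a check of single outlying libraries.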

How the results depend on the processing

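Scaling by library totals alone moved the most counts. It gave 16 risen and 11 fallen subunits in KOd 2D over wt 2D, 50 risen and 0 fallen in KOd 3D over wt 3D, 3 risen in KOs 3D over KOs 2D, 15 positive and 5 negative interactions in the libraries labelled KOs and 1 negative in KOd. It reversed the median interaction of the subunits in the libraries labelled KOs, to 0.11 from -0.12, as the median of all genes moved to 0.18 from -0.03. With RLE factors 4 interactions were positive there. Without a filter 1 subunit rose in wt 3D over wt 2D, 0 fell in Rosens over wt 2D and 1 interaction in KOd was negative. Without the 3 libraries that stand apart, chosen after seeing the data, 33 interactions were positive and 0 negative in KOd, 12 subunits rose in KOd 2D over wt 2D and 3 fell in Rosens over wt 2D. Leaving out 1 library at a time gave 8 to 25 rises and 0 to 1 falls in Rosens over wt 2D, 2 to 7 rises in KOd 2D over wt 2D, 0 to 2 falls in KOd 3D over wt 3D, 0 to 2 negative interactions in KOd and 3 to 8 positive ones in the libraries labelled KOs. With wt 3D over wt 2D it gave 60 to 71 falls and 0 rises. It gave 17 to 28 rises in KOd 3D over wt 3D and 17 to 27 positive interactions in KOd. The replicate letter as a block gave 28 rises in KOd 3D over wt 3D in all groups and 24 within these 2 groups alone, against 25 without it, and moved no count of subunits by over 1.5 times. Over single subunits and medians, 3538 values kept their direction and side of the threshold or moved by less than their spread, 164 lost and 95 gained the call, 5 medians moved and 1 reversed. With 3 libraries a group, or 2 in Rosens, small changes of single subunits are not resolved. Mature mRNA says nothing of protein or of respiration.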

Other observations

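NDUFA4 and its relative NDUFA4L2 are no members, since the RefSeq table used for the symbols calls them COXFA4 and COXFA4L2. NDUFA4L2, known in other cells as a target of hypoxia-inducible factor, was low per length, with 0.484 RPKM in KOd 3D and 2.44 in KOd 2D, and with 1.11 in wt 3D and 0.542 in wt 2D. It fell in KOd 3D over KOd 2D, with a log2 fold change of -2.32 ± 0.37, and rose in wt 3D over wt 2D, at 1.04 ± 0.38. Its interaction of KOd and culture was -3.36 ± 0.53 (adjusted p = 0.00014, edgeR). NDUFA4 stood at 83.9 RPKM in KOd 3D and 100.1 in KOd 2D.

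The table also holds the 2 mitochondrial ribosomal RNAs, RNR1 and RNR2. They changed by 1.74 ± 0.23 and 2.29 ± 0.23 in KOs 3D over wt 3D, and by 1.31 ± 0.23 and 1.44 ± 0.22 in KOd 3D over wt 3D. Both comparisons use the same wt 3D libraries. In 2D over wt 2D they changed by 1.46 ± 0.23 and 0.96 ± 0.22 in KOs, and stood at -0.13 and 0.34 in KOd, where neither passed. Ribosomal RNA took 1.45% to 1.88% of all counts in KOs 3D, 2.82% to 5.33% in KOd 3D and 5.27% to 8.46% in wt 3D, and its part in these values was not tested. In KOs 2D over wt 2D, the 283 genes tested on chromosome 13, which holds no tested member, had a median log2 fold change of -0.91.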
